A study of Mus musculus with 12 samples.

Results

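Endothelial and vessel genes were followed across subcutaneous KCip53-1 tumors as 35 genes that are commonly used to mark blood vessels, from junction proteins and VEGF receptors to the transcription factors of endothelial cells. They were picked by name from the 22630 genes in the files, with earlier results of these data known. All 35 were found and had enough reads to be tested. KCip53-1 is a mouse pancreatic cancer line grown from dsRed-sorted tumor cells of 1 animal that carried an R26 allele for rtTa, a TRE-driven p53R270H transgene and Ptf1a-Cre, among others. Cre from Ptf1a, active in pancreatic epithelium, turns on rtTa, and doxycycline (dox) then switches on p53R270H with its dsRed reporter, so that all 12 tumors share every allele and the groups differ in dox. By the study's account, KCip53 lines had lost the wild-type copies of p53, so the no-dox tumors are not a wild-type p53 control. The study also states that the lines were kept in dox while in culture. The cells of the no-dox tumors had thus met dox before injection, and no-dox refers to the time in the host. Each tumor grew from 500000 cells injected in 50% Matrigel into an immunodeficient NSG mouse, with hosts listed at 8 to 10 weeks of age. The study's methods give a younger age at ordering and a start soon after arrival. The mice of all 12 tumors are listed with 5% sucrose. Those of the 4 no-dox tumors never received dox. The mice of the 4 plus-dox tumors drank dox for 36 days, at 0.2 g/l. By the labels, the 4 off-dox tumors had it for 33 days followed by 3 days without it. In the study's text the withdrawal is placed at the time tumors became palpable. Each mouse carried 2 tumors, and neither the labels nor the methods say which tumors shared a mouse, so p-values measure the spread between tumors and are too small if tumors of 1 group came from the same animal.

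Blood vessels are lined by endothelial cells, which hold together through VE-cadherin (Cdh5) and Pecam1, sense VEGF through Kdr, Flt1 and Flt4, and answer angiopoietins through Tek. Growing vessels are led by tip cells that express Dll4, the ligand that restrains neighboring cells through Notch receptors, whereas ETS factors such as Erg and Fli1 and the SoxF factors keep the endothelial program on. In a transplanted tumor the vessels come from the host, and because host and tumor are both mouse, reads cannot be assigned to either. RNA was taken from whole, unsorted tumors, in which fewer cells of a type and less RNA per cell cannot be told apart.

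Counted reads on genes totalled 19845923 in the shallowest and 33137609 in the deepest tumor. Of these, the 35 genes took 0.0477% to 0.0681% in no-dox, 0.0599% to 0.146% in plus-dox and 0.0587% to 0.0784% in off-dox tumors. Trp53, to which the transgene and the host gene both contribute, ran from 40.1 to 57.4 RPKM (reads per kilobase of exon, scaled to the mapped reads of the tumor) in no-dox, from 40.4 to 56.0 RPKM in plus-dox and from 41.6 to 45.4 RPKM in off-dox tumors, so that its level does not check the labels. A pair of tumors stood apart from the rest. On the first principal component of all genes (49.7% of the variance), plus-dox tumor 2 lay at 102 and off-dox tumor 4 at 66.9, and the other tumors between -43.6 and 6.18. The share of mapped reads on genes was 88.4% to 89.4% in no-dox and 81.1% to 87.1% in the other tumors, which separates no-dox tumors from the rest, so tumors of equal share could not be compared across that line.

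Promoters show a sequence feature that the choice of genes did not use. RefSeq promoter windows (GRCm38.p6) were on hand for 17 of the 35 genes, and 250 bases before the annotated start were read 5′ to 3′ on the gene's strand. Either strand was searched for an ETS core (CCGGAAG or CAGGAAG), a SOX core (AACAAT) and a GATA core (AGATAA), and no matches of different cores overlapped. The ETS letters were in the windows of 7 of the 17 genes (41.2%), Apln, Cd34, Egfl7, Emcn, Erg, Notch4 and Robo4, and in those of 19% of all 27025 genes in the table. The SOX letters were in 3 of 17 (17.6%), Emcn, Erg and Tek, beside 10.9% of all genes, and the GATA letters in Erg alone (5.88% beside 11.4%). The windows of 4 genes are shown, those of the 3 genes with an entry whose no-dox and off-dox values did not overlap, Notch4, Erg and Robo4, and that of Dll4, the other Notch gene, which held no ETS match. Capitals mark the ETS letters or their reverse complement, whose first base lies 245 bases before the start in Notch4, 40 in Erg and 50 in Robo4. The windows are Notch4 at chr17:34564045-34564294 (plus strand), Erg at chr16:95459349-95459598 (minus strand, 1 of 3 annotated starts), Robo4 at chr9:37401722-37401971 (plus strand) and Dll4 at chr2:119325534-119325783 (plus strand).
Notch4: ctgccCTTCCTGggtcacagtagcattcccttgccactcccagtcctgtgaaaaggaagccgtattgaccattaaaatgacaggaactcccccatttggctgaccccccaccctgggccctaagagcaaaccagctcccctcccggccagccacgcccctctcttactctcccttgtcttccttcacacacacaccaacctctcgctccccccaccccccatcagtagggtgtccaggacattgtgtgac
Erg: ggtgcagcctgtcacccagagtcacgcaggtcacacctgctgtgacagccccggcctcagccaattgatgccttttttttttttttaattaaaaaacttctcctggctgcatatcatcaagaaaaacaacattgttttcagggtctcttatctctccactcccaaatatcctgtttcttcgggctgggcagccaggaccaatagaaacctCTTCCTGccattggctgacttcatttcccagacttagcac
Robo4: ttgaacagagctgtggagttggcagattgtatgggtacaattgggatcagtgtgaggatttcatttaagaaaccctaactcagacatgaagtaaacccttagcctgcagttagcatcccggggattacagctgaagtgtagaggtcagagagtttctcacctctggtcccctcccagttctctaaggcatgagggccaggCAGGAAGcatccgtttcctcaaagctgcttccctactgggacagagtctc
Dll4: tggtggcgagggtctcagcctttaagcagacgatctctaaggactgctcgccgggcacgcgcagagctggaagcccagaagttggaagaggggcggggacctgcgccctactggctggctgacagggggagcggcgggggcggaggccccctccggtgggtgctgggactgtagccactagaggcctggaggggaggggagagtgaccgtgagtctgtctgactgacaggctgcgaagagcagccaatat
A match is a string of letters and not a bound site.

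Levels are given as RPKM, which is scaled for gene length and may be compared between genes. Every one of the 35 genes was detected in every tumor. Over the 12 tumors, 9 genes had a mean above 10 RPKM, 18 lay between 2 and 10 RPKM and 8 at 2 RPKM or less. Ecscr, an endothelial surface protein involved in cell migration, was the highest at 36.4 RPKM, which was above the level of 91.3% of all genes. It was followed by Cd34 at 19.9 RPKM, a sialomucin also carried by blood progenitors, whose model overlaps Gm16897 on the opposite strand, by Plvap at 15.8 RPKM, which forms the diaphragms of endothelial pores, and by Egfl7 at 14.3 RPKM, a secreted protein of the vessel wall. Pecam1 and Cdh5, the defining junction markers, had means of 11.9 and 12.7 RPKM. The group SDs in no-dox tumors were 1.97 RPKM for Pecam1 and 3.61 RPKM for Egfl7, so the order of Egfl7 and Pecam1 does not exceed the spread between tumors. The mean of Cdh5 was raised by plus-dox tumor 2 (57.7 RPKM) and off-dox tumor 4 (16.4 RPKM). Its median of 7.68 RPKM lay below those of Pecam1 (10.7 RPKM) and Egfl7 (14.6 RPKM). The VEGF receptors followed the order Flt1 at 6.74, Kdr at 3.04 and Flt4 at 1.87 RPKM. At the bottom stood the SoxF factors Sox7 at 0.934 and Sox17 at 0.697 RPKM, while the third of them, Sox18, had a mean of 4.73 RPKM.

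**Figure D1:**
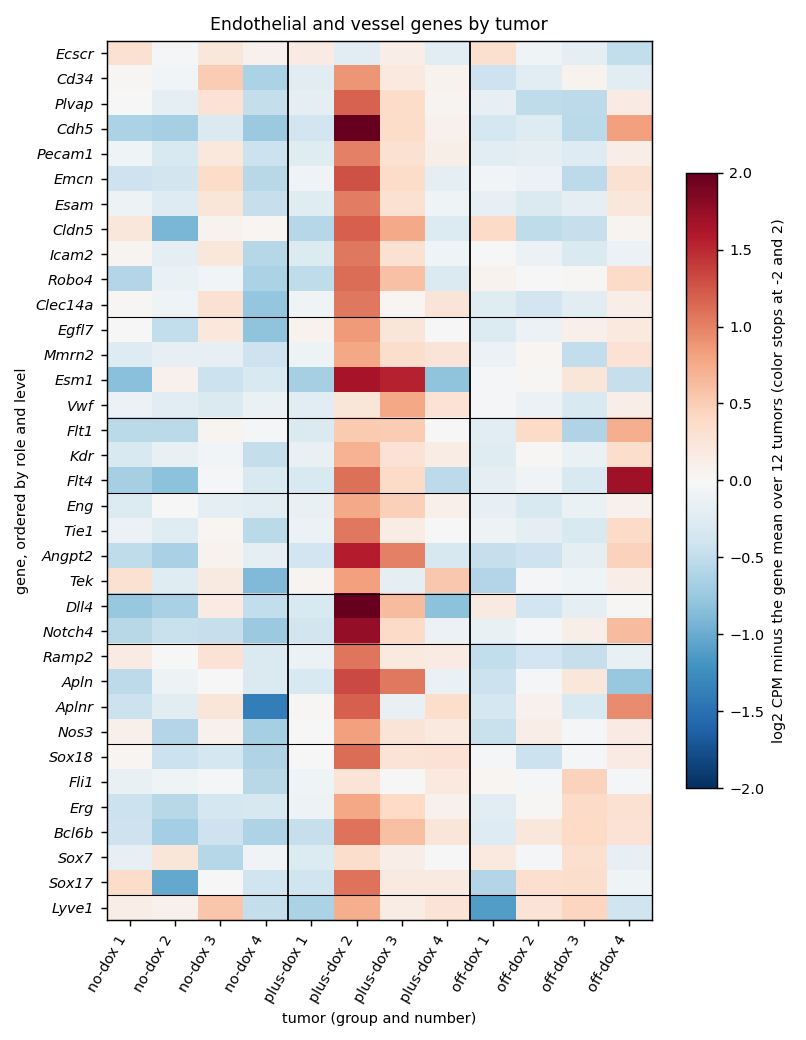
Log2 CPM of each of the 35 genes (rows, by role and then level) in each of the 12 tumors (columns) minus that gene's mean over the 12 tumors, with red above and blue below the mean and the color held at -2 and 2. The column of plus-dox tumor 2 is red in almost every row, with the exception of Ecscr, and no-dox tumor 4 holds the lowest value of 17 genes.

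A single tumor held most of the highest values. In plus-dox tumor 2, 30 of the 35 genes reached their highest log2 CPM, and the median deviation of the 35 genes from their own means was 1.05 on the log2 scale. The exceptions were Vwf, highest in plus-dox tumor 3, Flt1 and Flt4, highest in off-dox tumor 4, Fli1, highest in off-dox tumor 3, and Ecscr, highest in off-dox tumor 1. Against the mean of the other 11 tumors, the 35 genes in plus-dox tumor 2 lay between 0.828-fold and 6.76-fold with a median of 2.14-fold, and 21 of them were over 2-fold (60%), beside 5.03% of the 14586 genes with a mean above 0.25 RPKM. Dll4 at 6.76-fold, Cdh5 at 6.69-fold and Notch4 at 3.62-fold were the furthest up there, while Vwf at 1.16-fold, Fli1 at 1.19-fold and Ecscr at 0.828-fold stayed near the others. Lowest values gathered in no-dox tumors 4, with 17 genes, and 2, with 6 genes. Deviations in the remaining tumors were small, from -0.48 in no-dox tumor 4 to 0.31 in plus-dox tumor 3.

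**Figure D2:**
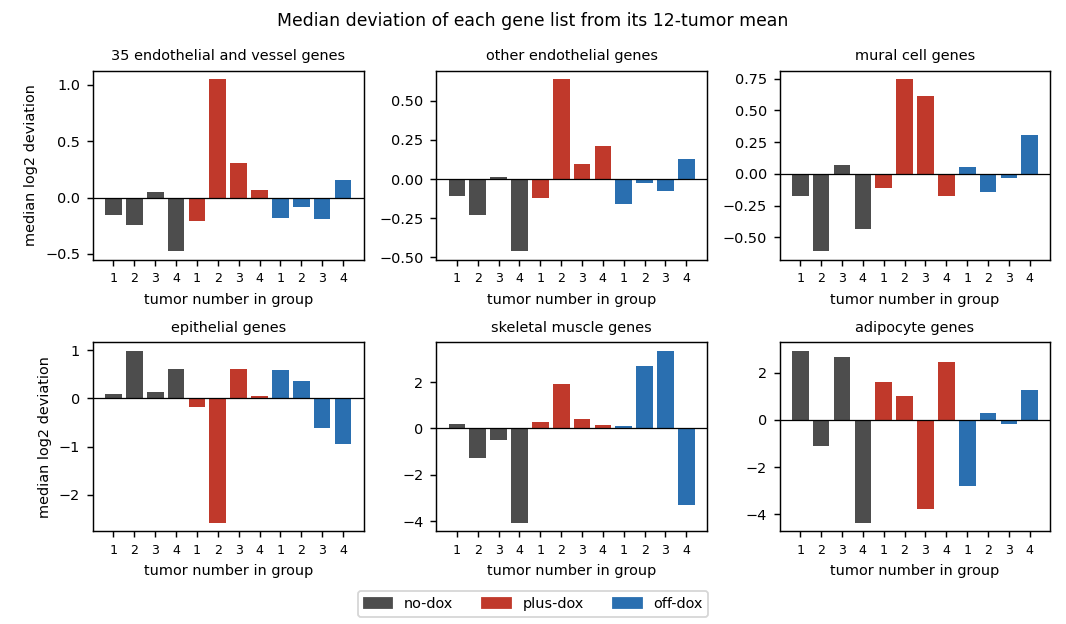
Median deviation (log2 CPM minus each gene's mean over the 12 tumors) of the 35 endothelial and vessel genes and of 5 lists of markers, 1 bar per tumor. Plus-dox tumor 2 is the highest for the 35 genes (1.05), the other endothelial genes (0.64) and the mural genes (0.74) and the lowest for the epithelial genes (-2.59).

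Other markers moved in the same tumor. The 10 epithelial markers had a median deviation of -2.59 in plus-dox tumor 2 and of -0.94 in off-dox tumor 4, against -0.61 to 0.99 elsewhere. The most abundant of them, the keratins Krt18 and Krt8, were at 608 and 532 RPKM in plus-dox tumor 2, within the range of the other tumors. The low values there were in others, such as Epcam at 7.76 RPKM against 40.9 to 388 RPKM elsewhere and Krt7 at 13.5 RPKM against 77.5 to 303 RPKM, both named after their values were seen. Summed over the 10 markers, the level was 2317 to 3172 RPKM in no-dox, 1365 to 2071 RPKM in plus-dox and 1084 to 2703 RPKM in off-dox tumors. Fibroblast markers, led by the collagens Col3a1 and Col1a2, were at 0.83 in plus-dox tumor 2 and between -0.48 and 0.41 elsewhere. Their part in the endothelial values was not tested.

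The first comparison asked whether tumors kept on dox, which switches on mutant p53, differed in vessel genes from tumors grown without dox. Mean levels were higher in plus-dox than in no-dox tumors for 34 of the 35 genes by edgeR log2 fold change, beside 51.4% of all 17561 genes tested, and Ecscr was the exception. The median log2 fold change of the 35 genes was 0.55, beside 0.013 for all genes, and 14 genes were over 1.5-fold higher, beside 13.3% of all genes, while 0 were that much lower, beside 6.38%. None of the 35 passed the call, an edgeR adjusted p under 0.1 with a change over 1.5-fold, and neither did any other gene (0%). The smallest edgeR adjusted p among them was 0.32, while 17 of the 35 genes were higher at an unadjusted edgeR p under 0.05, beside 8% of all genes, and 0 were lower, beside 5.67%. DESeq2 called 3 of them, Cdh5, Erg and Bcl6b, beside 0.729% of all genes (0.512% with moderated fold changes). In limma-voom Erg was called, beside 0.638% of all genes. Values of the groups did not overlap for 3 genes, Notch4, Erg and Mmrn2, all higher in plus-dox, beside 4.31% of all genes, and for 0 genes lower, beside 4.59%. The size of the difference rested in good part on plus-dox tumor 2: without it the median log2 fold change was 0.34 and 7 genes had an unadjusted edgeR p under 0.05, and that count was 11 without no-dox tumor 1, no-dox tumor 2 or plus-dox tumor 3 and 10 without no-dox tumor 4. Without both plus-dox tumor 2 and off-dox tumor 4 the median was 0.33 and 9 genes had an unadjusted edgeR p under 0.05, and with the mean log2 CPM of the epithelial markers as a covariate the median was 0.38 and that count 9.

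Among the Notch genes, both stood high in plus-dox tumor 2. Notch4, the Notch receptor largely restricted to endothelium (chr17:34701240-34725488 of mm9), measured 1.79, 1.91, 1.79 and 1.49 RPKM in no-dox tumors 1 to 4 and 2.02, 8.46, 3.17 and 2.41 RPKM in plus-dox tumors 1 to 4. Even the lowest plus-dox tumor was above the highest no-dox tumor. The log2 fold change was 1.23 (SE 0.39, edgeR adjusted p = 0.33) and was 0.56 without plus-dox tumor 2. For Dll4, the tip-cell ligand (chr2:119151520-119161402 of mm9), the no-dox values were 1.90, 2.03, 3.36 and 2.16 RPKM and the plus-dox values 2.58, 18.4, 4.57 and 1.80 RPKM. These groups overlapped, since plus-dox tumor 4 was the lowest of the 8. Its log2 fold change of 1.55 (SE 0.60, edgeR adjusted p = 0.33) was 0.36 without plus-dox tumor 2.

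Among the junction and surface genes, the largest difference was in Cdh5. It was chosen for display after its values were seen, and it lies at chr8:106625525-106668402 of mm9. VE-cadherin RNA measured 6.52, 6.28, 7.68 and 5.71 RPKM in no-dox tumors and 7.68, 57.7, 11.8 and 10.5 RPKM in plus-dox tumors. Plus-dox tumor 2 was thus far above all others, and plus-dox tumors 3 and 4 also lay above every no-dox tumor. The log2 fold change was 1.76 (SE 0.58, edgeR adjusted p = 0.33) and 0.63 without plus-dox tumor 2. By comparison Pecam1, displayed for the same reason, was at 11.3, 9.62, 12.9 and 8.35 RPKM in no-dox and at 10.0, 22.7, 13.5 and 12.8 RPKM in plus-dox tumors, a log2 fold change of 0.50 (SE 0.23, edgeR adjusted p = 0.37). Robo4, a receptor that steadies vessels, had 1.43, 1.95, 1.93 and 1.29 RPKM in no-dox and 1.50, 4.43, 2.95 and 1.74 RPKM in plus-dox tumors, with overlapping groups. Ecscr, the most abundant of the 35, measured 46.1, 36.1, 41.0 and 37.6 RPKM in no-dox and 41.9, 30.6, 37.6 and 31.5 RPKM in plus-dox tumors. It was the one gene with a negative log2 fold change (-0.17, SE 0.17, edgeR adjusted p = 0.63), and plus-dox tumor 2 held its lowest value of the 8. Counting used no strand, and by the study's methods it covered only exon stretches unambiguous to a gene. The deposited model of 1700066B19Rik, on the opposite strand, does not overlap that of Ecscr. In the GENCODE annotation of the same build, however, their exons share 62 bases, where reads of both cannot be told apart. The level of 1700066B19Rik as deposited was 0.122 to 3.23 RPKM.

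**Figure D3:**
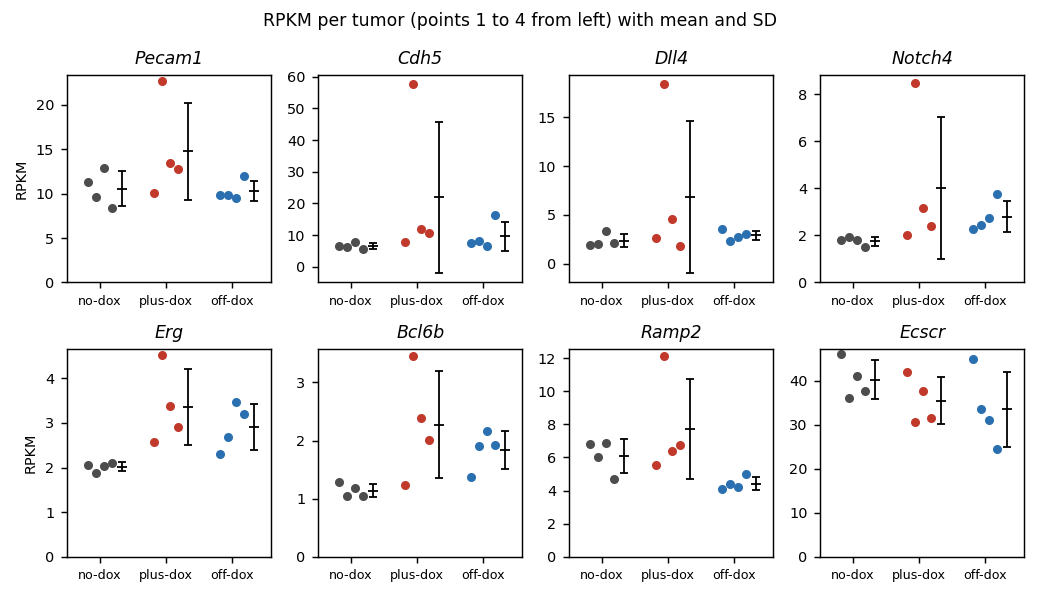
RPKM (vertical axis, linear) of 8 of the genes in each tumor, by group, with points in order of tumor number from left to right and the mean and SD of 4 tumors at the right of each group. Plus-dox tumor 2 stands far above the rest for Cdh5 (57.7 RPKM) and Dll4 (18.4 RPKM), whereas Ecscr is low there (30.6 RPKM).

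All 6 transcription factors had a log2 fold change above 0, with a median of 0.65. Erg, the ETS factor of mature endothelium (chr16:95581811-95751972 of mm9), had 2.06, 1.87, 2.04 and 2.11 RPKM in no-dox tumors and 2.58, 4.53, 3.39 and 2.92 RPKM in plus-dox tumors. All plus-dox values lay above all no-dox values, and the log2 fold change of 0.75 (SE 0.21, edgeR adjusted p = 0.32) was 0.56 without plus-dox tumor 2. Bcl6b, a repressor expressed in endothelium downstream of VEGF signaling, measured 1.28, 1.05, 1.19 and 1.05 RPKM in no-dox and 1.24, 3.46, 2.39 and 2.01 RPKM in plus-dox tumors. Only plus-dox tumor 1 fell within the no-dox range, and the log2 fold change was 1.02 (SE 0.28, edgeR adjusted p = 0.32). Sox18, the most abundant of the transcription factors, which acts in vessel and lymphatic growth, had 4.81, 3.43, 3.41 and 2.91 RPKM in no-dox and 4.66, 9.72, 5.21 and 5.67 RPKM in plus-dox tumors, with a log2 fold change of 0.81 (SE 0.25, edgeR adjusted p = 0.32). Fli1, an ETS factor shared with blood cells, measured 4.12, 4.24, 4.15 and 2.93 RPKM in no-dox and 4.31, 5.19, 4.22 and 5.16 RPKM in plus-dox tumors. Its groups overlapped and its log2 fold change was 0.30.

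Secreted and matrix genes included 1 with separate groups. Mmrn2, a matrix glycoprotein laid down by endothelium, stood at 3.12, 3.28, 3.11 and 2.64 RPKM in no-dox and at 3.47, 6.0, 4.36 and 4.39 RPKM in plus-dox tumors. The gap between the nearest tumors was small, and the log2 fold change was 0.60 (SE 0.19, edgeR adjusted p = 0.33). Egfl7 measured 14.4, 10.1, 15.5 and 7.80 RPKM in no-dox and 14.9, 24.6, 15.6 and 14.3 RPKM in plus-dox tumors. Plus-dox tumors 1, 3 and 4 were within or next to the no-dox range, and miR-126 lies within the gene on the same strand. Esm1 and Angpt2, both markers of sprouting vessels, had log2 fold changes of 1.21 (SE 0.51) and 1.01 (SE 0.41), and in both, plus-dox tumors 2 and 3 were high while tumors 1 and 4 lay within or below the no-dox range. For Esm1, shown after its values were seen, the plus-dox values were 1.77, 8.53, 7.64 and 1.59 RPKM against 1.59 to 3.00 RPKM in no-dox tumors. Angpt2 lies within Mcph1 on the opposite strand, and Mcph1 itself measured 2.34 to 3.65 RPKM.

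VEGF receptors and the receptors of the angiopoietin and TGF-beta families showed overlapping groups throughout. Flt1, a VEGF receptor that also acts as a decoy, had 4.66, 4.59, 6.53 and 6.30 RPKM in no-dox and 5.52, 9.14, 8.84 and 6.74 RPKM in plus-dox tumors, a log2 fold change of 0.46 (SE 0.28, edgeR adjusted p = 0.46). Eng, the TGF-beta co-receptor endoglin, measured 10.2, 12.3, 10.1 and 10.0 RPKM in no-dox and 11.1, 19.6, 15.6 and 13.0 RPKM in plus-dox tumors. Plus-dox tumor 1 alone kept these groups from separating, and the log2 fold change was 0.50 (SE 0.17, edgeR adjusted p = 0.33). Tek and Tie1, the angiopoietin receptor and its partner, had log2 fold changes of 0.46 and 0.55, and Kdr, the main VEGF receptor of endothelium, one of 0.52. Of the apelin, adrenomedullin and nitric oxide genes, Ramp2, the partner of the adrenomedullin receptor, was highest, with 6.81, 6.02, 6.88 and 4.68 RPKM in no-dox and 5.56, 12.2, 6.41 and 6.75 RPKM in plus-dox tumors. Beyond plus-dox tumor 2 these values covered the same range, and the log2 fold change of 0.36 (SE 0.25) was 0.04 without that tumor. Lyve1, the hyaluronan receptor of lymphatic endothelium that some macrophages also carry, measured 14.7, 14.1, 18.4 and 9.14 RPKM in no-dox and 8.62, 21.1, 13.6 and 16.1 RPKM in plus-dox tumors. Its log2 fold change of 0.10 (SE 0.34) was -0.13 without plus-dox tumor 2.

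**Figure D4:**
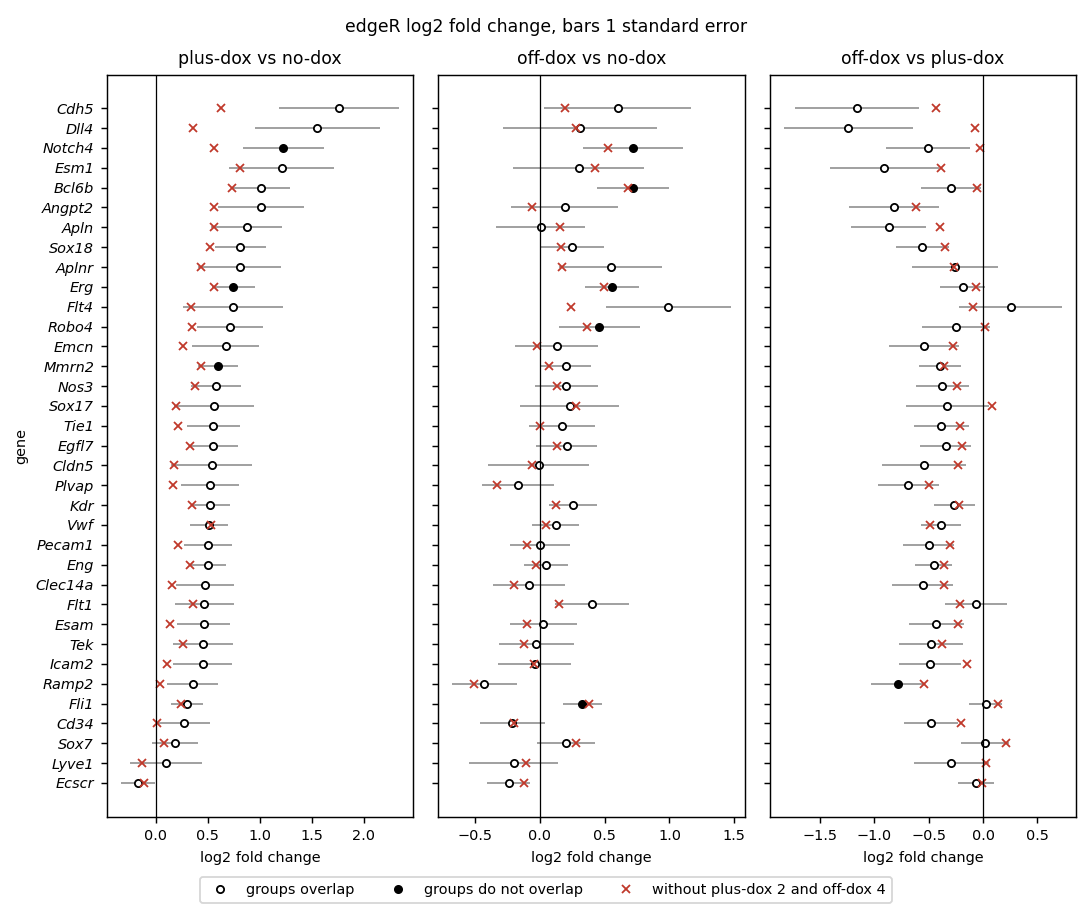
Log2 fold change of each gene in the 3 comparisons (horizontal axis), with bars of 1 standard error from edgeR, filled circles where the values of the groups do not overlap and crosses for the fit without plus-dox tumor 2 and off-dox tumor 4. In plus-dox against no-dox, 34 of 35 circles lie to the right of 0, and the crosses of Cdh5 and Dll4 lie far to the left of their circles.

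The second comparison asked whether tumors taken off dox differed from tumors grown without it. Log2 fold changes were above 0 for 26 of them, beside 50.7% of all genes, and their median was 0.20, beside 0.0072 for all genes. That median was 0.11 without no-dox tumor 2, 0.12 without off-dox tumor 4, and 0.12 without both plus-dox tumor 2 and off-dox tumor 4. With the epithelial mean as a covariate it was 0.048, with 19 genes above 0. None of the 35 passed the call in edgeR, beside 1.34% of all genes, and none did in DESeq2 or limma-voom. Erg and Bcl6b were higher at an unadjusted edgeR p under 0.05, 2 of 35 beside 10.9% of all genes, and 0 genes were lower, beside 9.48%. The groups did not overlap for 5 genes, all higher in off-dox (beside 5.83% of all genes), namely Notch4, Bcl6b, Erg, Robo4 and Fli1, and for 0 genes lower, beside 5.71%. No-dox tumors are the same in both comparisons, so the recurrence of Notch4 and Erg is not independent evidence.

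Notch4 spread more in off-dox (SD 0.663 RPKM) than in no-dox tumors (SD 0.180 RPKM). It stood at 2.28, 2.43, 2.72 and 3.75 RPKM in off-dox tumors 1 to 4, all above the no-dox maximum of 1.91 RPKM, with a log2 fold change of 0.72 (SE 0.39, edgeR adjusted p = 0.31). When plus-dox tumor 2 was left out of the fit of all tumors, Notch4 passed the call (edgeR adjusted p = 0.093), as did 2.02% of all genes. Erg measured 2.30, 2.68, 3.47 and 3.19 RPKM in off-dox tumors, above the no-dox maximum of 2.11 RPKM, with a log2 fold change of 0.56 (SE 0.21, edgeR adjusted p = 0.17). It passed when off-dox tumor 1 was left out (edgeR adjusted p = 0.099), as did 4.51% of all genes. For Bcl6b the off-dox values were 1.37, 1.90, 2.16 and 1.92 RPKM and the log2 fold change 0.72 (SE 0.28, edgeR adjusted p = 0.18). Robo4 had 2.17, 2.04, 2.07 and 2.59 RPKM, a narrow range, and a log2 fold change of 0.46 (SE 0.31, edgeR adjusted p = 0.42). Fli1 had 4.54, 4.28, 6.03 and 4.13 RPKM, and its groups were apart in log2 CPM but not in RPKM, where no-dox tumor 2 at 4.24 RPKM was above off-dox tumor 4.

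The groups overlapped for all other genes. Pecam1 measured 9.83, 9.90, 9.49 and 12.0 RPKM in off-dox tumors, with a log2 fold change near 0 (SE 0.23). Cdh5 stood at 7.56, 8.01, 6.63 and 16.4 RPKM, and off-dox tumor 4 made most of its log2 fold change of 0.60 (SE 0.57), which was 0.19 without both apart tumors. Flt4, the receptor of VEGF-C found on lymphatic and sprouting vessels and shown here after its values were seen, had 1.45, 1.56, 1.33 and 5.14 RPKM in off-dox tumors against 0.956 to 1.57 RPKM in no-dox tumors. It thus had the largest log2 fold change of the 35 genes in the comparison, 0.99 (SE 0.48, edgeR adjusted p = 0.27), which was 0.24 without both apart tumors. Ecscr had 44.9, 33.6, 31.1 and 24.5 RPKM and a log2 fold change of -0.24 (SE 0.17), with its lowest value in off-dox tumor 4. Dll4 stood at 3.52, 2.35, 2.68 and 3.01 RPKM and Flt1 at 5.53, 8.41, 4.26 and 10.3 RPKM. Egfl7 had 11.5, 12.5, 14.8 and 15.2 RPKM and Sox18 4.42, 3.29, 4.35 and 4.84 RPKM. None of these 4 genes was apart from the no-dox tumors. Eng measured 10.6, 9.52, 10.8 and 12.1 RPKM, Mmrn2 3.30, 3.63, 2.52 and 4.20 RPKM and Lyve1 5.98, 15.4, 17.4 and 9.34 RPKM. Their log2 fold changes were 0.05, 0.20 and -0.20.

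The third comparison set tumors after dox withdrawal against tumors kept on dox. Log2 fold changes were above 0 for 3 of the 35 genes, Flt4, Fli1 and Sox7, beside 49.8% of all genes, and the median was -0.43, beside -0.00051 for all genes. The plus-dox tumors are the same as in the first comparison, so this is not a separate sign of it. None of the 35 passed the call in edgeR, and neither did any other gene (0%). At an unadjusted edgeR p under 0.05, 5 genes were lower in off-dox, Plvap, Eng, Apln, Ramp2 and Sox18, beside 1.81% of all genes, and 0 were higher, beside 1.25%. DESeq2 and limma-voom called 0 of the 35, beside at most 0.0342% of all genes. The median was -0.13 without plus-dox tumor 2 and -0.23 without both apart tumors, and the count of 5 ranged from 1 without plus-dox tumor 2 to 17 without plus-dox tumor 1.

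Ramp2 alone had groups that did not overlap (1 of 35 lower, beside 0.729% of all genes, and 0 higher, beside 0.689%). It lies at chr11:101107648-101109564 of mm9 and measured 4.09, 4.41, 4.19 and 5.00 RPKM in off-dox tumors against 5.56, 12.2, 6.41 and 6.75 RPKM in plus-dox tumors. Against the no-dox tumors, at 4.68 to 6.88 RPKM, the off-dox values overlapped through off-dox tumor 4. The log2 fold change from plus-dox was -0.78 (SE 0.25, edgeR adjusted p = 1) and from no-dox -0.43 (SE 0.25, edgeR adjusted p = 0.35). The former was -0.47 without plus-dox tumor 2. Plvap, shown after its values were seen, had 13.4, 10.4, 10.3 and 16.1 RPKM in off-dox tumors and 13.8, 33.6, 18.4 and 16.2 RPKM in plus-dox tumors, a log2 fold change of -0.69 (SE 0.28, edgeR adjusted p = 1). Dll4 at -1.24 (SE 0.60) and Cdh5 at -1.16 (SE 0.57) were the furthest down, both through plus-dox tumor 2.

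Whether single genes differed beyond the endothelial level of a tumor was described by setting each log2 CPM against the mean of Pecam1, Cdh5, Tie1, Esam and Robo4 in the same tumor. By this measure Notch4 was higher in every plus-dox and every off-dox tumor than in every no-dox tumor, by 0.34 and 0.45 on the log2 scale. Among the 35 genes, 2 were higher without overlap in plus-dox (Cdh5 and Notch4), beside 0.159% of all genes tested, and 1 in off-dox (Notch4), beside 0.831%. Ramp2 was lower in both, with mean differences of -0.34 in plus-dox and -0.65 in off-dox. In all, 2 genes were lower without overlap in plus-dox (Esam and Ramp2, beside 6.55% of all genes) and 4 in off-dox (Pecam1, Esam, Plvap and Ramp2, beside 8.85%). Cdh5, Pecam1 and Esam are part of the reference, so their own values here are set in part by it. Each reference gene had a log2 fold change above 0 in both comparisons (Cdh5 1.76 and Robo4 0.71 in plus-dox). Subtracting them lowers the relative values of most other genes, so the shares of all genes given here are no fair background. In log2 CPM alone, 4.31% of all genes were higher without overlap in plus-dox and 5.83% in off-dox. Since Cdh5 itself was far up in plus-dox tumor 2, the measure was repeated with the other 4 genes as reference, a choice made after the values were seen. With these 4, neither Esam nor Ramp2 (mean difference -0.18) was lower without overlap in plus-dox than in no-dox tumors. In off-dox against no-dox, Plvap and Ramp2 still were, and Pecam1 and Esam were not.

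**Figure D5:**
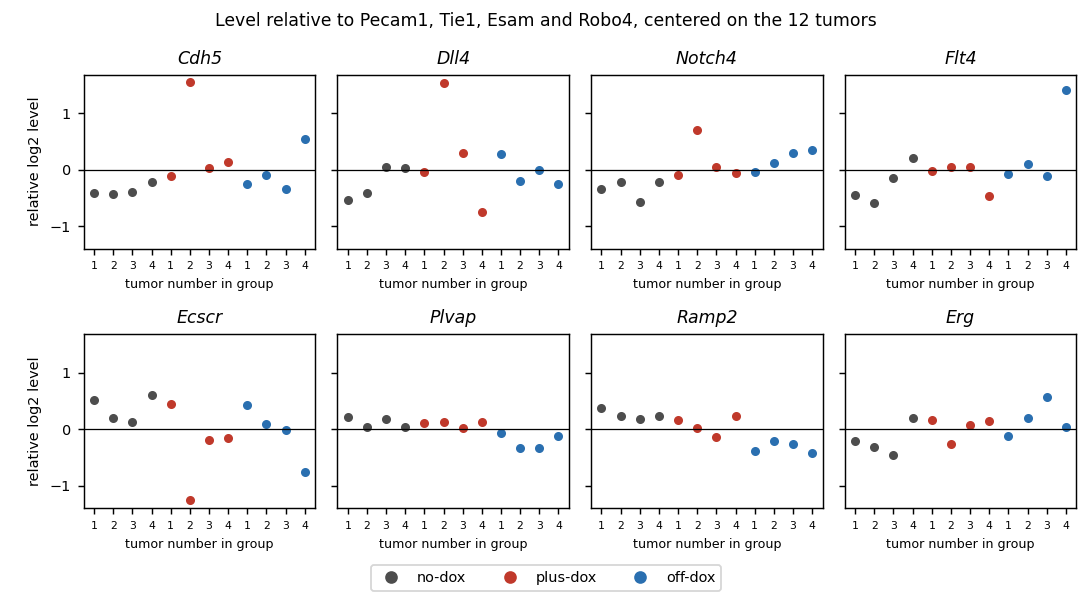
Log2 CPM of 8 genes minus the mean of Pecam1, Tie1, Esam and Robo4 in the same tumor, centered on the mean of the 12 tumors, with 1 point per tumor in order of group and number. Cdh5 and Dll4 reach 1.55 and 1.54 in plus-dox tumor 2, and Flt4 reaches 1.42 in off-dox tumor 4.

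Against that reference of 4 genes, plus-dox tumor 2 was far up in Cdh5 (1.55) and Dll4 (1.54), less so in Notch4 (0.71), and far down in Ecscr (-1.26). Off-dox tumor 4 was up in Flt4 (1.42) and Cdh5 (0.55) and down in Ecscr (-0.77). Notch4 lay at -0.34, -0.22, -0.57 and -0.22 in no-dox, at -0.10, 0.71, 0.06 and -0.05 in plus-dox and at -0.05, 0.13, 0.30 and 0.35 in off-dox tumors. All 8 tumors that had ever received dox were above all 4 that had not. Plvap lay at -0.07, -0.34, -0.34 and -0.12 in off-dox tumors, below all others, and Ramp2 at -0.39, -0.21, -0.27 and -0.43, likewise below all others. These were the 2 genes lower in off-dox than in plus-dox without overlap, beside 0.188% of all genes. The reference genes themselves had log2 fold changes below 0 there, which raises the relative values of most other genes, so that share is no fair background. In log2 CPM alone it was 0.729%. With the 5-gene reference, neither Plvap nor Ramp2 separated off-dox from plus-dox tumors.

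Other genes of the vessel wall followed in part. Of 27 further endothelial genes tested, 25 had a log2 fold change above 0 in plus-dox against no-dox (median 0.47) and 20 in off-dox against no-dox (median 0.19). Without both apart tumors these medians were 0.22 and 0.078. Of the 27, 1 passed the call, in off-dox against no-dox, beside 1.34% of all genes. This was Aqp1, the water channel of vessels and red cells, lower in off-dox than in no-dox tumors. It fell from 75.5, 56.3, 58.1 and 50.2 RPKM in no-dox to 41.0, 33.1, 35.3 and 26.4 RPKM in off-dox tumors (log2 fold change -0.79, SE 0.18, edgeR adjusted p = 0.083), with 60.2, 47.0, 35.2 and 64.0 RPKM in plus-dox tumors. As single tumors were left out, Aqp1 stayed called in 3 of 12 fits, without plus-dox tumor 1, plus-dox tumor 2 or off-dox tumor 1, and its edgeR adjusted p ran from 0.038 to 0.22. The off-dox values of Aqp1 lay below all no-dox values. Of the 27 genes, 1 was lower without overlap in off-dox, beside 5.71% of all genes. Another 4 were higher without overlap, beside 5.83%. Of the red-cell genes, Alas2 measured 0.442 to 4.01 RPKM, and the near-identical Hba-a1 and Hba-a2 were listed at 0 in every tumor, which may reflect how reads with several positions were treated. The part of red cells in the Aqp1 values was not tested. Stab1, a scavenger receptor of sinusoidal endothelium and macrophages, was the next in level, at 24.6 ± 3.01, 33.9 ± 5.15 and 37.0 ± 12.5 RPKM (SD, n = 4 each) in no-dox, plus-dox and off-dox tumors.

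Of 19 ligands, receptors and targets of vessel growth, 0 passed the call in any comparison, with median log2 fold changes of 0.34 in plus-dox and 0.15 in off-dox against no-dox (0.22 and 0.13 without both apart tumors). Vegfa, the main ligand of Kdr, had 75.9, 57.7, 64.9 and 84.8 RPKM in no-dox, 67.3, 74.6, 113 and 80.7 RPKM in plus-dox and 96.3, 131, 86.3 and 92.2 RPKM in off-dox tumors. Every off-dox tumor was above every no-dox tumor, with a log2 fold change of 0.55 (SE 0.21, edgeR adjusted p = 0.17). This held for 1 of the 19 genes, beside 5.83% of all genes, and 0 were lower without overlap, beside 5.71%. Jag1, a Notch ligand of vessels and epithelium, measured 65.2 RPKM in plus-dox tumor 2 and 78.6 RPKM in off-dox tumor 4, against 11.4 to 23.4 RPKM in the other 10 tumors. Those are the same tumors that stood apart as a whole.

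Mural cells, the pericytes and smooth muscle around vessels, were followed with 14 genes, of which 14 had a log2 fold change above 0 in plus-dox against no-dox (median 0.61) and 11 in off-dox against no-dox (median 0.49), with 0 calls. Those medians were 0.46 and 0.33 without both apart tumors. Their most abundant members, Tagln and Acta2, which fibroblasts also express, had log2 fold changes of 0.11 (SE 0.24) and 0.12 (SE 0.20) in plus-dox against no-dox. Of the lymphatic genes, Prox1, the defining factor, was at 0.303 to 2.11 RPKM and Ccl21a, a gene with near-identical copies, was listed at 0 in all tumors. Pdpn, the most abundant of this list, which fibroblasts and epithelium also carry, ran from 4.81 RPKM in off-dox tumor 4 to 31.6 RPKM in plus-dox tumor 2. Of 5 lymphatic genes tested, 0 passed the call.

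Markers of other cells that express some of the 35 genes were measured in the same tumors. The 8 macrophage genes, led by Lyz2 and C1qa, summed to 2070 to 3149 RPKM in no-dox, 2449 to 2945 RPKM in plus-dox and 2298 to 4059 RPKM in off-dox tumors, and 0 of them passed the call. Platelet and megakaryocyte genes, which matter for Pecam1 and Vwf, were led by Pf4 at 35.9 to 102 RPKM and by Itga2b at 0.570 to 1.50 RPKM, and the ranges of the groups overlapped for both. Muscle and fat of the host were uneven. The 8 skeletal muscle genes, led by Acta1 and Mylpf, summed to 8.18 to 153 RPKM in no-dox, 120 to 387 RPKM in plus-dox and 8.95 to 1062 RPKM in off-dox tumors. Actn3 passed the call in off-dox against no-dox (log2 fold change 4.53, SE 1.09, edgeR adjusted p = 0.088), as did 1.34% of all genes. That call was kept in 3 of the 12 fits that left out single tumors. The 8 adipocyte genes, led by Cfd and Adipoq, summed to 6.28 to 735 RPKM in no-dox, 6.83 to 424 RPKM in plus-dox and 13.7 to 177 RPKM in off-dox tumors. The part of host muscle and fat vessels in the endothelial values was not tested.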

How the data were processed

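RNA-seq of 12 subcutaneous tumors (no-dox, plus-dox and off-dox, 4 each) was used. From unstranded polyA libraries the authors mapped 50-bp reads to mm9. They counted them on the unambiguous exon stretches of 1 RefSeq model per gene. The submitters' processing notes name CASAVA 1.8.2, Bowtie 0.12.8, TopHat 1.4.1 and bedtools 2.16.2. The deposited expected count is coverage in reads, unnormalized and partly fractional, and the deposited RPKM is the authors' count per kilobase and scaled to mapped reads. Treatment of reads with several positions is not given in the sources used here.

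Expected counts were rounded to whole numbers. The 17561 of 22630 genes whose counts over all tumors summed to 10 or more were tested with edgeR 4.0.16 (R 4.3.3), with TMM scaling, a quasi-likelihood test in 1 fit of the 3 groups and Benjamini-Hochberg adjustment over all genes tested. SE is the log2 fold change divided by the square root of F. Following the authors' limits, genes were called at adjusted p under 0.1 where they differed by more than 1.5-fold, averaged above 0.25 RPKM and were longer than 250 bp. Log2 CPM values used a prior count of 2. DESeq2 1.42.0 (with and without moderated fold changes), limma 3.58.1, other scalings and filters and fits without single tumors were tried as alternatives, and the edgeR script was tested on simulated data. No 2 tumors of the same group agreed within sampling noise.

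Members, gene lists and tests were chosen with earlier results of these data known. Values in every tumor were given for members that passed a call, for up to 5 members per comparison with the largest fold change among those whose groups did not overlap, and for the most abundant member of each role, with from each other list the 2 most abundant genes and any called gene. Genes shown beyond that rule are named as such. A further allele of the line is not reported here.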

Additional observations from a re-analysis of the deposited data

Results flagged for a closer look

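In each group of 4 tumors, the highest or lowest RPKM of a gene was marked where its gap to the nearest tumor took over 0.829 of the group's range. This marked 9 of 105 groups. For independent, normally distributed values the limit marks about 1 in 20. The genes moved together within a tumor, and the share over all genes was not computed. The count of 9 therefore cannot be read as an excess. In plus-dox tumor 2 it marked Cdh5 at 57.7 RPKM, Dll4 at 18.4 RPKM, Egfl7 at 24.6 RPKM and Tie1 at 6.97 RPKM. In off-dox tumor 4 it marked Cdh5 at 16.4 RPKM, Pecam1 at 12.0 RPKM and Flt4 at 5.14 RPKM. All 7 of these were the highest of their group, in the same pair of tumors that stood apart over all genes and had the lowest median deviations of the epithelial markers. Among no-dox tumors, Eng was high in tumor 2 at 12.3 RPKM and Fli1 low in tumor 4 at 2.93 RPKM.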

How the results depend on the processing

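In plus-dox against no-dox, edgeR called 0 of the 35 genes, DESeq2 3 without and 3 with moderated fold changes (Cdh5, Erg and Bcl6b) and limma-voom with tumor weights 1 (Erg), and over all genes these tools called 0, 128, 90 and 112. Leaving out each tumor in turn gave 0 to 0 calls there, 0 to 1 in off-dox against no-dox and 0 to 0 in off-dox against plus-dox. The calls in off-dox against no-dox were Notch4 without plus-dox tumor 2, beside 2.02% of all genes, and Erg without off-dox tumor 1, beside 4.51%. In off-dox against no-dox edgeR called 235 genes in all, 0 with the replicate block, 3 with the 8 tumors of the pair alone and 615 in DESeq2 without moderation. Medians over the 35 genes ran from 0.34 to 0.68, from 0.11 to 0.26 and from -0.57 to -0.13 in the 3 comparisons as single tumors were left out. Leaving out both apart tumors raised the genes lower in off-dox than in plus-dox without overlap from 1 to 3. Smaller groups separate more often for any gene, and the share over all genes was not computed for that setting, so the rise cannot be read as a difference. Lyve1 turned from 0.10 to -0.13 without both apart tumors and to -0.068 with the epithelial score as covariate, and ran from -0.13 (without plus-dox tumor 2) to 0.29 as single tumors were left out, with -0.055 without no-dox tumor 4. Notch4 relative to Cdh5 alone was -0.28 in plus-dox against no-dox, against 0.34 relative to the 5 genes.

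Tumors of the same number in different groups did not deviate together (mean r -0.088 over 12 pairs, lowest -0.45, against 0.043 over 36 pairs of different number). That gave no sign of pairing by number, but a correlation over all genes cannot exclude a shared mouse or preparation. With the replicate block, 0 of the 35 genes were called in any comparison, and the medians were 0.51, 0.19 and -0.37. Of the fold changes of single named genes, 403 kept direction and side of the threshold, 7 passed the call under an alternative and 4 reversed. The 35 genes together held 12365 to 41332 counts per tumor, and Sox17, the lowest in mean RPKM, 30 to 143.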
